A study of Mus musculus with 9 samples.

Results

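The 8 GIMAP genes of the mouse that the array measures (Gimap1, Gimap3, Gimap4, Gimap5, Gimap6, Gimap7, Gimap8 and Gimap9) were followed in CD4 T cells of allergic lung inflammation. Members were chosen by name: probe sets that list 1 of these genes and no other. Each gene had 1 such probe set, so that the family makes up 8 of 19937 genes tested. GIMAP stands for GTPase of the immunity-associated proteins. These proteins share a GTP-binding domain, sit mostly on membranes inside the cell, and are made above all by lymphocytes. Their genes lie side by side in a single cluster, on chromosome 6 in the mouse. Loss of Gimap5 or Gimap1 is known to deplete mature T cells, and the family is studied for its part in lymphocyte survival, quiescence and organelle upkeep.

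RNA was measured on 9 Affymetrix arrays of sorted cells, 3 arrays in each of 3 groups. Naive cells, sorted by surface markers that included CD4+ and CD44-, were splenic and taken at day 29 from mice given a sham treatment. Acute Th2 cells (CD4+ CD69+ ST2+) were taken from lungs at day 29. Their mice had been injected into the peritoneum with ovalbumin (10 µg, with 1.5 mg alum) on days 1, 14 and 21, then breathed 1% ovalbumin aerosol on 3 consecutive days. Chronic Th2 cells were lung cells of that same sort, harvested on day 104 once the aerosol had been given for 12 weeks at 2 challenges a week. Sorted cells of all 3 groups were stimulated through the T cell receptor (anti-CD3 with anti-CD28, 8 h), as labelled, and no level here is that of resting cells by that label. The labels used here name neither strain nor age. Spleen against lung cannot be told apart from naive against Th2, nor can day 29 against day 104 from acute against chronic. Each sort isolates a population, so that fewer cells of a kind and less RNA per cell cannot be told apart either.

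Values are deposited log2 intensities, and levels of different genes are not compared because each probe set has its own response. A level of 6.53, the 95th percentile of 1015 olfactory receptor genes that T cells are not known to use, served as a mark of background. A gene was called at a limma p under 0.05 after Benjamini-Hochberg adjustment over all 19937 genes. The labels call the arrays biological replicates without saying which animals they came from, and p-values therefore measure only the spread among these samples, which may be technical. With 3 arrays a group, precision is limited by their number.

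The labels were checked before the results. Naive replicate 1 stood apart. Il2, the growth factor that T cells make after stimulation, had a level of 5.07 on it, against 11.33 and 11.27 on naive replicates 2 and 3 and 8.95 to 12.01 on the 6 lung arrays. A list of 24 T cell receptor induced genes had a median level of 7.92 on naive replicate 1, against 10.73 and 10.96 on the other naive arrays. Chronic Th2 replicate 3 correlated more closely with acute Th2 replicate 3 (Pearson 0.991 across genes) than with chronic Th2 replicates 1 (0.980) and 2 (0.985). Gata3, the factor of the Th2 lineage, was at 8.25 to 9.63 on the naive arrays and at 11.68 to 12.02 on the lung arrays, Cd44 was at 7.30 to 7.72 against 9.18 to 9.67, and Cd4 was at 9.49 to 10.81 on all 9 arrays. Cd69, the early activation marker for which the lung cells were sorted, went the other way after the stimulus, at 10.59, 12.08 and 12.20 on naive replicates 1, 2 and 3 and at 10.22 to 11.34 on the lung arrays. Chronic minus naive it was -1.09 (limma adjusted p = 0.158), and -1.61 (adjusted p = 0.00462) without naive replicate 1. Marker lists of 2 other cell types rose with the lung groups, at medians above 6.53 on the lung arrays. A list of 6 markers of regulatory T cells had a median level of 8.21 to 8.46 on the naive and 10.04 to 10.52 on the lung arrays, with 4 of 6 called higher in each lung group. Its defining gene Foxp3 was at 8.96 to 9.26 and 10.08 to 10.72. A list of 6 measured markers of group 2 innate lymphoid cells, which carry ST2 in the lung and share Gata3 with Th2 cells, had a median of 6.45 to 6.51 on the naive and 7.97 to 8.64 on the lung arrays, with 5 of 6 called higher in each lung group. Of all genes 3.67% were called higher in acute and 3.68% in chronic Th2 cells. The part of either cell type in the results was not tested. Il1rl1, which encodes the sort marker ST2, was not analysed here. Of 10 further marker lists of other cells, 9 had median levels below 6.53 on every array, among them endothelium, which also makes GIMAP proteins (5.95 to 6.25). The tenth list, Cd8a and Cd8b1, had a median of 6.57 to 7.04 on the naive arrays and 6.35 to 6.54 on the lung arrays. The part of any of these cells in the results was not tested.

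Gimap4 fell in both lung populations, and none of the other members moved as far. Gimap4 encodes a GIMAP protein that is reported to speed the death of T cells. Its levels were 10.97, 10.54 and 10.08 on naive replicates 1, 2 and 3, 8.63, 9.03 and 8.99 on the acute Th2 arrays, and 7.98, 8.09 and 8.32 on the chronic Th2 arrays. No array of a group overlapped one of another, and the order was naive, acute, chronic from high to low. Among all genes, 19.7% had no overlap between acute Th2 and naive cells and 27.9% between chronic Th2 and naive cells. Between chronic and acute Th2 cells it was 22.7%. The share of genes apart in all 3 comparisons was not counted. From 10.53 ± 0.45 in naive cells to 8.88 ± 0.22 in acute Th2 cells (SD, n = 3 each), the log2 difference was -1.65 (SE 0.22, 95% confidence interval -2.14 to -1.15, limma adjusted p = 0.00259), a 3.13-fold fall in intensity. To 8.13 ± 0.17 in chronic Th2 cells (SD, n = 3) it was -2.40 (SE 0.22, interval -2.90 to -1.91, limma adjusted p = 0.000283), a 5.28-fold fall. Both comparisons share the naive arrays. By size of the fall Gimap4 ranked 80 and 29 of 19937 genes.

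**Figure D1:**
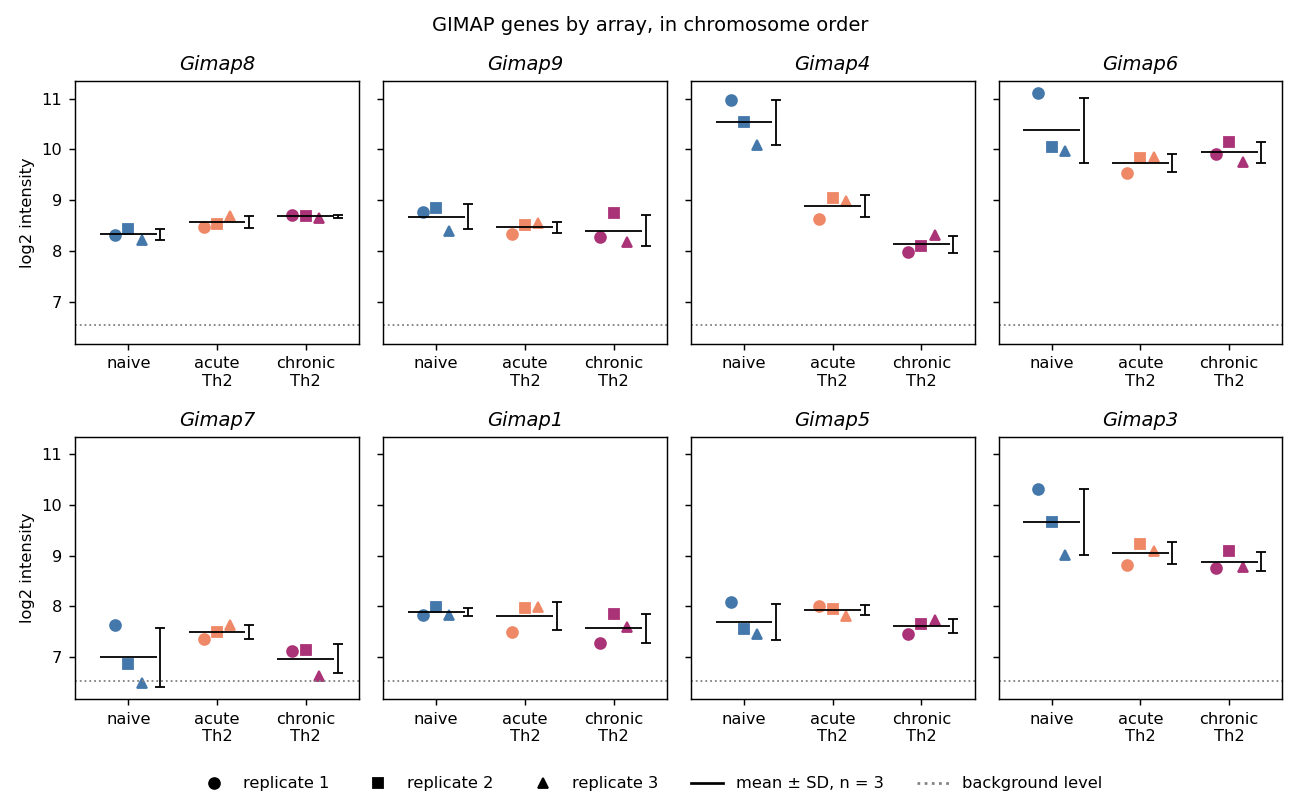
Log2 intensity (vertical axis) of the 8 GIMAP genes on each of the 9 arrays by group (horizontal axis), in the order of the genes on the chromosome; symbols are replicates, black lines are means with SD (n = 3), and the dotted line is the background level of 6.53. Gimap4 separates the 3 groups without overlap, and naive replicate 1 is the highest naive array for Gimap3, Gimap4, Gimap5, Gimap6 and Gimap7.

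Gimap4 was the 1 member called lower in acute Th2 cells, and 0 members were called higher, where 2.2% and 3.67% of all genes were called, 5.87% in either direction. At an unadjusted p under 0.05 the counts were 2 lower and 1 higher, where 16.3% of all genes passed in either direction. In chronic Th2 cells 1 member was lower (Gimap4) and 1 higher (Gimap8), against 4.2% and 3.68% of all genes, 7.88% in either direction. The median difference over the 8 members was -0.14 in acute and -0.30 in chronic Th2 cells, and over all genes it was -0.03 and 0.04. The median of the members without naive replicate 1 was -0.12 in acute and -0.15 in chronic Th2 cells, where 3 of 8 members then had a positive difference in place of 1. Between acute Th2 and naive cells, Gimap4 and Gimap6 (lower) and Gimap8 (higher) had groups without overlap. This held for 19.7% of all genes, 10.9% lower and 8.8% higher. For chronic Th2 and naive cells this held for Gimap4 (lower) and Gimap8 (higher), against 27.9% of all genes, 12.3% lower and 15.6% higher.

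**Figure D2:**
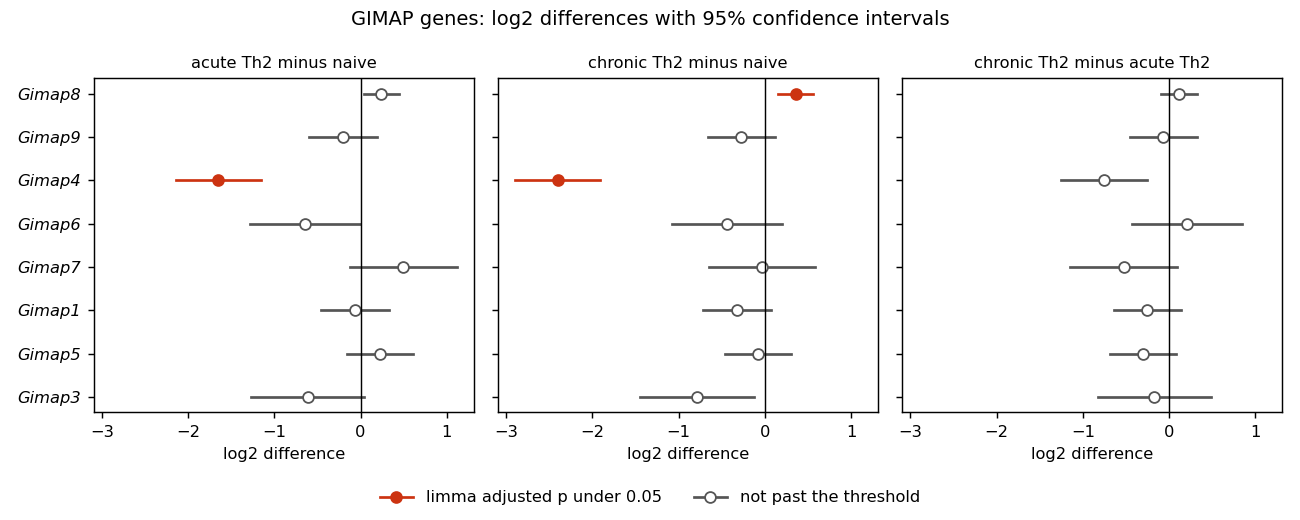
Log2 difference (horizontal axis) of each GIMAP gene in the 3 comparisons, with its 95% confidence interval from limma (unadjusted); filled red points passed an adjusted p of 0.05. Gimap4 lies at -1.65 and -2.40 against naive cells, Gimap8 passes at 0.36 in chronic Th2 cells, and the intervals of most other members include 0.

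The fall of Gimap4 did not depend on naive replicate 1, the array with low Il2. Without that array the differences were -1.43 (limma adjusted p = 0.000888) in acute and -2.18 (adjusted p = 7.54e-05) in chronic Th2 cells. It passed in all 19 other fits tried for each comparison, with differences from -1.87 to -1.32 in acute Th2 cells (adjusted p from 8.77e-05 to 0.0205) and from -2.81 to -2.18 in chronic Th2 cells (adjusted p from 1.35e-05 to 0.00513). A difference taken within each array cannot be moved by a constant shift of that array's log2 values, though a change that depends on intensity could move it. Gimap4 minus the mean of the other 7 members, the same probe sets on every array, was 2.10, 2.06 and 1.89 on the naive arrays, 0.34, 0.53 and 0.47 on the acute Th2 arrays and -0.24, -0.38 and 0.13 on the chronic Th2 arrays. The groups did not overlap in this gap, so that Gimap4 and the mean of the others changed unequally on these arrays. The gap was chosen after Gimap4 was seen to fall furthest, so it is no independent support for that fall. Its sizes in themselves mean nothing, since they mix probe sets.

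Chronic and acute Th2 cells were compared to see whether the genes differ between stages. Limma called 0 members in either direction, where 0.015% of all genes were called lower and 0.015% higher, 0.0301% in all. At an unadjusted p under 0.05 it was 1 of 8 members, near the 14.9% of all genes that passed. That was Gimap4, with a difference of -0.75 (SE 0.22, interval -1.25 to -0.26) and a limma adjusted p of 0.322. Without naive replicate 1 and chronic Th2 replicate 3 together, its difference was -0.85 with a limma adjusted p of 0.0371. Chronic Th2 replicate 3 was left out for its likeness to an acute array, and it had the highest Gimap4 of the chronic arrays (8.32). Leaving it out therefore widens the difference, and that p-value is no independent support. Arrays of both stages did not overlap for Gimap4, Gimap5 and Gimap7, each lower in chronic cells, where 22.7% of all genes had no overlap and 10.8% lay lower without it.

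The promoters shown are those of the members in which a searched motif was found, Gimap4 among them. Windows of 250 bases before the start of each gene were taken from RefSeq (GRCm38.p6), with 9 windows for the 8 genes because Gimap8 has 2 starts. Of 6 short motifs searched on both strands, capitals mark each match:
Gimap4, GRCm38.p6 chr6:48684328-48684577, plus strand: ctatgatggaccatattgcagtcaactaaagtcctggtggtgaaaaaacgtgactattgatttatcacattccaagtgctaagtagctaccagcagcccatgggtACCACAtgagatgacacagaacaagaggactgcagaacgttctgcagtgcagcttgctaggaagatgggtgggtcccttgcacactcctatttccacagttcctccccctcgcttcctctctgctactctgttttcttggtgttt
Gimap7, GRCm38.p6 chr6:48718371-48718620, plus strand: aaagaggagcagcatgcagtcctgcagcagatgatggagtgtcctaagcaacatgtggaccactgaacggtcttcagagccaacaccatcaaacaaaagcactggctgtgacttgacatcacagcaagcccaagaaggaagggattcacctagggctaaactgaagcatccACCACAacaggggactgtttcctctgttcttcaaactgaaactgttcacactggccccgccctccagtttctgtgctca
Gimap1, GRCm38.p6 chr6:48738797-48739046, plus strand: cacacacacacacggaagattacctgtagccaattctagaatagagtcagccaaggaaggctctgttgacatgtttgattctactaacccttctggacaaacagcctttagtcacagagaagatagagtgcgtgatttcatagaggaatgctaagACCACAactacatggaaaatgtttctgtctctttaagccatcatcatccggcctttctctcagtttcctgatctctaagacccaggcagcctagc
Gimap3, GRCm38.p6 chr6:48770852-48771101, minus strand: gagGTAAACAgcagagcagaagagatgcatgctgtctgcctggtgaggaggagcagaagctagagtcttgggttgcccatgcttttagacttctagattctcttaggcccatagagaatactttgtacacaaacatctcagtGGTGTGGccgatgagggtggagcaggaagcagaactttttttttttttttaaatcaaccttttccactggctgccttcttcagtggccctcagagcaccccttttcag
The RUNX core TGTGGT was in the windows of Gimap4, Gimap7 and Gimap1, and in 14% of 32851 such windows of all genes. It lay on the minus strand of the window at -145 to -140 in Gimap4, -79 to -74 in Gimap7 and -95 to -90 in Gimap1, counted back from the start. Of these 3 genes Gimap4 was called lower in lung cells and neither Gimap7 nor Gimap1 was called against naive cells. Among the 9 windows, that of Gimap3 alone held the FOXO letters GTAAACA, at -247 to -241, which stand in 3.17% of all windows. It alone also held the KLF letters CCACACC, at -108 to -102 on the minus strand of the window, which stand in 6.52% of all windows. No member window held the ETS letters CCGGAA, found in 12% of all windows. None held the TCF and LEF letters CTTTGA, found in 13.8%, and none held the GATA letters AGATAA, found in 9.99%. A match is a run of letters and does not show binding. Each motif was searched in a single form, so a window without these letters may hold another form of the site.

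Gimap8 was the 1 member called higher, in chronic Th2 cells alone among the comparisons. It encodes the longest GIMAP protein, with several GTP-binding domains. Its levels were 8.32, 8.43 and 8.22 on the naive arrays, 8.47, 8.54 and 8.69 on the acute Th2 arrays and 8.72, 8.68 and 8.65 on the chronic Th2 arrays. Both lung groups lay above all naive arrays and overlapped each other. The difference was 0.36 (SE 0.09, interval 0.15 to 0.56, limma adjusted p = 0.0475) in chronic and 0.24 (SE 0.09, interval 0.04 to 0.45, limma adjusted p = 0.211) in acute Th2 cells. Chronic minus acute was 0.12 (interval -0.09 to 0.32, limma adjusted p = 0.513). The call in chronic cells held in 5 of 19 other fits. Centred on the olfactory receptor genes of each array, whose scaling shifts all genes by -0.41 in this comparison, the difference was -0.05. As deposited, the olfactory receptor genes themselves had a median chronic minus naive difference of 0.34, near the 0.36 of Gimap8. Their median level was 5.67, 5.51 and 5.15 on chronic Th2 replicates 1, 2 and 3 and 4.94 to 5.21 on the other arrays. With the replicate block the limma adjusted p was 0.0716. The fits that lost it also include each one without naive 2, naive 3 or any 1 lung array, with a limma adjusted p of up to 0.154 (without chronic Th2 replicate 1).

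Gimap3 and Gimap6 had naive means above those of both lung groups, and each was highest on naive replicate 1. For Gimap3, naive replicate 2 also lay above every lung array. Gimap6, whose protein binds an ATG8 protein of autophagy, was at 11.11, 10.05 and 9.97 on naive replicates 1, 2 and 3, at 9.53, 9.83 and 9.85 in acute and at 9.92, 10.15 and 9.76 in chronic Th2 cells. All acute Th2 arrays lay below all naive arrays, while the chronic arrays overlapped naive replicates 2 and 3. The difference was -0.64 (SE 0.28, limma adjusted p = 0.306) in acute and -0.44 (SE 0.28, adjusted p = 0.343) in chronic Th2 cells, and without naive replicate 1 it was -0.27 and -0.07. Gimap3, a close relative of Gimap5 that is placed at mitochondria, was at 10.32, 9.66 and 9.01 on the naive arrays. It was at 8.82, 9.24 and 9.10 in acute and at 8.76, 9.10 and 8.78 in chronic Th2 cells, so that both lung groups overlapped naive replicate 3. The difference was -0.61 (SE 0.29, adjusted p = 0.349) in acute and -0.79 (SE 0.29, adjusted p = 0.136) in chronic Th2 cells, and -0.28 and -0.46 without naive replicate 1. In chronic Th2 cells it passed without naive replicate 3, with a difference of -1.11 (limma adjusted p = 0.0252).

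The calls of Gimap5 and Gimap7 in acute Th2 cells turned on naive replicate 1. Gimap5, whose loss in mice and rats shortens the life of T cells, was at 8.10, 7.55 and 7.45 on the naive arrays, at 8.01, 7.95 and 7.81 in acute and at 7.47, 7.66 and 7.73 in chronic Th2 cells. Gimap7, a GIMAP protein with GTPase activity, was at 7.64, 6.86 and 6.49 on the naive arrays, at 7.35, 7.50 and 7.63 in acute and at 7.12, 7.15 and 6.64 in chronic Th2 cells. For both genes naive replicate 1 was the highest of the 9 arrays, and naive replicates 2 and 3 lay below every acute Th2 array. Acute minus naive was 0.23 (SE 0.17, limma adjusted p = 0.617) for Gimap5 and 0.50 (SE 0.27, adjusted p = 0.448) for Gimap7. Without naive replicate 1 both were called higher in acute Th2 cells, by 0.43 (limma adjusted p = 0.0358) and 0.82 (adjusted p = 0.0178). The count of members higher in acute Th2 cells was thus 0 with all arrays and 2 without naive replicate 1. The share of all genes called higher went from 3.67% to 6.05% with that change, and the share called lower from 2.2% to 6.11%. Chronic minus naive was -0.08 for Gimap5 and -0.03 for Gimap7, and 0.12 and 0.29 without naive replicate 1 (limma adjusted p = 0.486 and 0.309). Naive replicate 3 and chronic Th2 replicate 3 of Gimap7 lay near the background mark of 6.53. Gimap3 and Gimap5 are close relatives, and whether their probes cross-hybridise was not tested.

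Gimap1 and Gimap9 were not called in any comparison. Gimap1, which mature T and B cells need to persist, was at 7.84, 7.98 and 7.84 on the naive arrays, at 7.50, 7.97 and 7.99 in acute and at 7.27, 7.84 and 7.59 in chronic Th2 cells. Its intervals ran from -0.46 to 0.33 for acute and from -0.71 to 0.08 for chronic minus naive, and so do not exclude falls of those sizes. Gimap9 was at 8.77, 8.85 and 8.39 on the naive arrays, at 8.34, 8.52 and 8.55 in acute and at 8.28, 8.74 and 8.18 in chronic Th2 cells. Its intervals were -0.59 to 0.19 and -0.66 to 0.12. The groups overlapped for both genes in each comparison.

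The low stimulus reading of naive replicate 1 went with high levels of several members. It was the highest naive array for 5 of 8 members (Gimap3, Gimap4, Gimap5, Gimap6 and Gimap7) and the lowest for 0, where it was the highest for 33.3% and the lowest for 42.8% of all genes. Over both other naive arrays the excess was 1.10 for Gimap6, 0.98 for Gimap3, 0.96 for Gimap7, 0.66 for Gimap4 and 0.60 for Gimap5. It was -0.07 for Gimap1, 0.15 for Gimap9 and near 0 for Gimap8. This is 1 array and has no replicate check, and the part of the stimulus in these levels was not tested. Among the lung arrays, chronic Th2 replicates 1 and 2 had lower Il2 (9.95 and 8.95) than the other 4 (10.94 to 12.01), and Gimap4 was lowest on these 2 arrays.

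**Figure D3:**
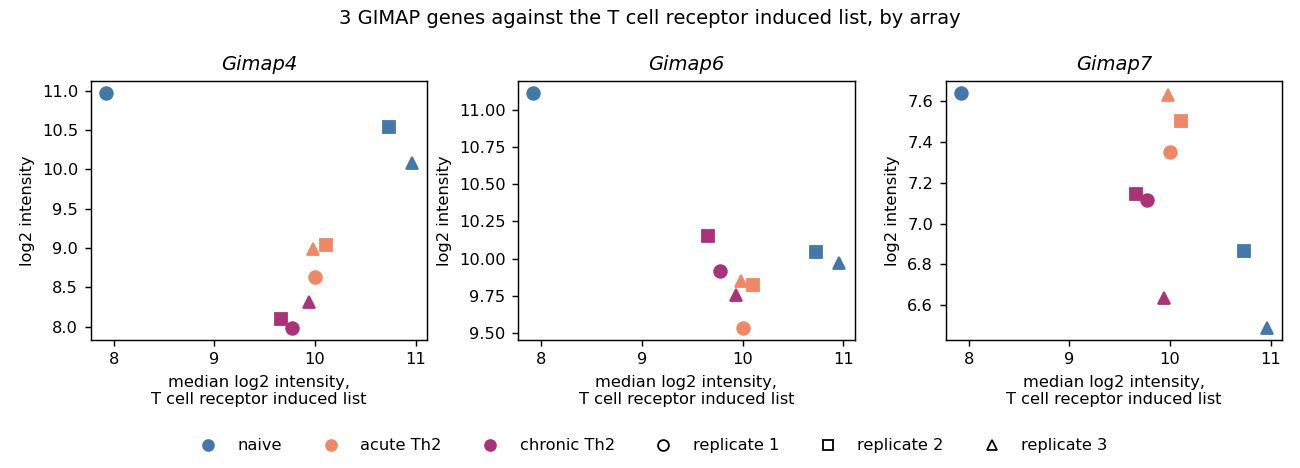
Log2 intensity of Gimap4, Gimap6 and Gimap7 (vertical axes) against the median log2 intensity of the T cell receptor induced list (horizontal axes), 1 point per array, coloured by group. Naive replicate 1, at 7.92 on the horizontal axis, is the highest array for all 3 genes. The lung arrays lie between 9.66 and 10.11 on that axis, and all are below the naive arrays in Gimap4.

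The members did not move as a block along the chromosome. In gene order the cluster runs Gimap8, Gimap9, Gimap4, Gimap6, Gimap7, Gimap1, Gimap5 and Gimap3, and differences in chronic Th2 cells were 0.36, -0.27, -2.40, -0.44, -0.03, -0.32, -0.08 and -0.79. Gimap4 thus lies between 2 genes that were not called. Of the 6 protein-coding genes on either side of the cluster, 0 were called lower by limma in any comparison. Of all genes 2.2% were called lower in acute and 4.2% in chronic Th2 cells, and 0.015% between chronic and acute. With 12 genes, 0 lower is near those shares and says little about the neighbours. Atp6v0e2, a subunit of the proton pump of vesicles, was called higher in chronic Th2 cells (0.55, limma adjusted p = 0.00998), where 3.68% of all genes were. Tmem176b and Tmem176a, the nearest genes after Gimap3, had differences of 0.19 and 0.12 in acute and 0.21 and 0.05 in chronic Th2 cells and were not called. Only 5 of these 12 genes had a mean above the background mark, and a fall of the other 7 would be hard to measure.

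**Figure D4:**
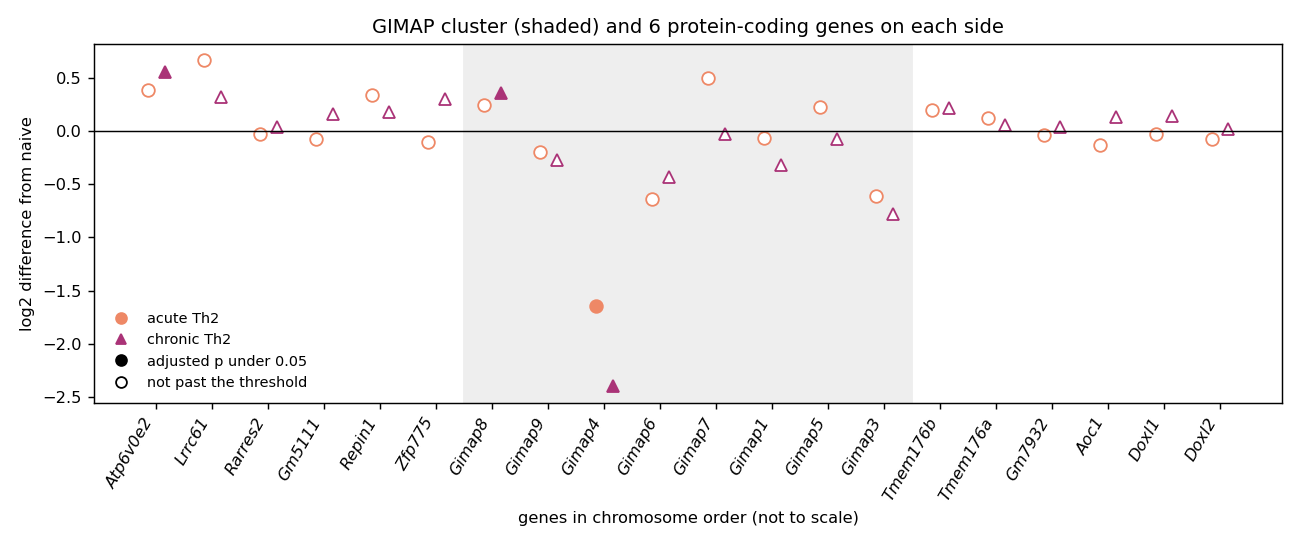
Log2 difference from naive cells (vertical axis) of the 8 GIMAP genes (shaded) and the 6 protein-coding genes on each side, in chromosome order and not to scale; circles are acute and triangles chronic Th2 cells, filled where the limma adjusted p was under 0.05. The filled points are Gimap4 in both groups, and Gimap8 and Atp6v0e2 in chronic Th2 cells.

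Over the 9 arrays, Pearson correlations between members ran from -0.82 (Gimap4 and Gimap8) to 0.88 (Gimap3 and Gimap6), with a median of 0.29 over 28 pairs. Without naive replicate 1 the pair of Gimap3 and Gimap6 was at 0.51, Gimap4 and Gimap8 at -0.78, and Gimap5 and Gimap7 at 0.68 against 0.75 with all arrays. These are descriptions of 9 arrays that share groups and scaling. The 6 genes whose profile was most like the mean of the 8 members, among 18684 named genes, were Tbck (Pearson 0.988 over 9 arrays), Ap2a2 (0.986), Washc4 (0.982), Mrps35 (0.981), Rev3l (0.976) and Atraid (0.974). Ap2a2 encodes a subunit of a clathrin adaptor, Washc4 one of an endosomal actin complex, Mrps35 a protein of the mitochondrial ribosome and Rev3l a DNA polymerase. By Spearman correlation Washc4 ranked 1 and Tbck 6, and without naive replicate 1 their Pearson correlations were 0.961 and 0.967. Without that array Tbck ranked 4 by Pearson correlation, Ap2a2 5, Washc4 7, Mrps35 21, Atraid 22 and Rev3l 54. The closest gene to Gimap4 was Ikbke, a kinase of innate signalling (0.991, and 0.987 without naive replicate 1), and the closest to Gimap7 was Bmp2k (0.976 and 0.984). The closest genes to Gimap6 and Gimap3 were Metap1d (0.986, and 0.911 without naive replicate 1) and Dgke (0.988 and 0.962). For Gimap1, Gimap5, Gimap8 and Gimap9 they were Wdr47 (0.983), Sys1 (0.948), Supt3 (0.946) and Immp1l (0.933). Leaving out naive replicate 1 changed the closest gene to Plekhj1 for Gimap4 (0.997), Mtch1 for Gimap1 (0.990) and Zdhhc7 for Gimap3 (0.990). It became Tasor for Gimap6 (0.967) and Echs1 for Gimap9 (0.967), and stayed the same for Gimap5, Gimap7 and Gimap8.

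Genes that act near the GIMAP proteins were read beside them. For comparison with the counts below, limma called 2.2% of all genes lower and 3.67% higher in acute Th2 cells. In chronic Th2 cells the shares were 4.2% and 3.68%. Without naive replicate 1 the shares lower and higher were 6.11% and 6.05% in acute, and 11.4% and 5.84% in chronic Th2 cells. Of 17 measured genes of the BCL2 family and interleukin 7 receptor signalling, which set the life span of T cells, 3 rose and 0 fell in acute Th2 cells: Stat5a, a factor downstream of the receptor (1.61, limma adjusted p = 0.0052), and the death genes Bak1 (0.68, adjusted p = 0.0292) and Pmaip1 (0.56, adjusted p = 0.0206). In chronic Th2 cells 2 rose, Stat5a (1.45) and Pmaip1 (0.52), and 1 fell, Bcl2l11, which encodes the death protein BIM (-1.47, limma adjusted p = 0.0118). Levels of Bcl2l11 were 8.60, 9.14 and 9.32 on the naive arrays and 7.19, 7.38 and 8.09 on the chronic Th2 arrays. In acute Th2 cells its difference was -1.01 (limma adjusted p = 0.0643). The median difference of the list was -0.05 in acute and -0.02 in chronic Th2 cells. Without naive replicate 1 the counts were 4 higher and 3 lower in acute and 3 higher and 2 lower in chronic Th2 cells. The 3 lower in acute Th2 cells were Bcl2l11 (-1.22, limma adjusted p = 0.0117), Bid (-0.70, adjusted p = 0.00517) and Bcl2 (-0.41, adjusted p = 0.0457). The 4 higher were Stat5a, Stat5b, Bak1 and Pmaip1. In chronic Th2 cells the 3 higher were Il7r (0.63, limma adjusted p = 0.0281), Stat5a and Pmaip1. The 2 lower there were Bcl2l11 (-1.68, limma adjusted p = 0.00197) and Bid (-1.02, adjusted p = 0.000593). With all arrays Il7r was at 0.41 in chronic Th2 cells (limma adjusted p = 0.253).

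Of 10 genes of the ATG8 family, GSK3 and related proteins, some of which bind GIMAP proteins, limma called 0 against naive cells. In each comparison 3 passed an unadjusted p under 0.05, as did 16.3% of all genes in acute and 25.6% in chronic Th2 cells. Gabarapl1 had a difference of 1.31 in acute Th2 cells (adjusted p = 0.181) and Gabarap one of 0.54 in chronic Th2 cells (adjusted p = 0.0505). Without naive replicate 1, Gsk3b was called in acute Th2 cells (0.79, limma adjusted p = 0.000778), and 2 genes were higher and 1 lower in chronic Th2 cells. Of 12 measured genes of other immune GTPase families, 2 rose and 0 fell in both lung groups. They were Gbp5 (1.63 in acute and 1.23 in chronic Th2 cells) and Gbp3 (1.49 and 1.00), guanylate-binding proteins of the interferon response.

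Of 18 measured genes of naive T cell quiescence and homing, 6 fell and 0 rose in each lung group. Of all genes 2.2% were called lower in acute and 4.2% in chronic Th2 cells. The falls were led by the transcription factor gene Lef1 (-2.88 in acute and -3.50 in chronic Th2 cells), with Bach2 (-2.17 and -2.13), the lymph node homing receptor gene Ccr7 (-1.90 and -2.15) and Klf3 (-1.66 and -2.26) next. The list median was -0.58 in acute and -0.92 in chronic Th2 cells. It was -0.57 and -0.58 without naive replicate 1, and the counts were 8 lower and 2 higher in both. Lef1 was at 11.71, 10.56 and 10.42 on the naive arrays, so that it too was highest on naive replicate 1, as Gimap4 was. Of the 24 T cell receptor induced genes, 3 rose in acute (Zbtb32 by 3.11, Batf by 2.54 and Ifng by 1.98) and 4 in chronic Th2 cells, with 0 lower. Without naive replicate 1 the counts were 6 higher and 10 lower in acute and 7 higher and 13 lower in chronic Th2 cells. Between chronic and acute Th2 cells limma called 0 genes in all of these lists, where 0.0301% of all genes were called. At an unadjusted p under 0.05 it was 1 gene of the survival list, 2 of the other GTPases and 0 of the rest. That level was passed by 14.9% of all genes.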

How the data were processed

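Per the submitters' processing notes, the authors used RMA and limma, so each deposited value is a log2 intensity of 1 probe set on 1 array. For versions, build and filters: not given in the sources used here. Values were used as deposited. Of 34760 probe sets, 21640 list 1 gene, 1321 list several and 11799 list none in the platform annotation. Probe sets with several genes were left out, and a gene took its probe set with the highest mean, which gave 19937 genes. Entrez identifiers matched the RefSeq gene table for 21553 probe sets. No filter on dim genes was used.

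The fit used limma 3.58.1 (R 4.3.3) on all 9 arrays, through lmFit, then contrasts.fit, then eBayes, with two-sided tests, group as the only term and Benjamini-Hochberg adjustment over all genes. The fit was tested on simulated data. An exact permutation test of 3 arrays against 3 is not reported, as its smallest two-sided p is 0.1. Differences are on the log2 scale, SE and 95% intervals come from limma, and each SD is over 3 arrays.

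The members, gene lists, motifs and alternatives were chosen with earlier results of these data known. All 8 members are named, with up to 4 called genes of each list by size (or up to 2 as values), the 6 neighbours on each side of the cluster, and the 6 genes most like the family mean by Pearson correlation (predicted genes and receptor segments left out). Bcl2l11 and Lef1 by array, Gsk3b and the survival genes without naive replicate 1, and the gap between Gimap4 and the mean of the others, were chosen after values were seen. So were Bcl2l11 in acute Th2 cells and the single genes named from the marker lists of other cells. Of 205 list and marker symbols, 181 were measured. Promoter sequences come from RefSeq (GRCm38.p6), all 8 members matched, and the build of the array annotation is not given.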

Additional observations from a re-analysis of the deposited data

How the results depend on the processing

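The 3 comparisons were refitted under 19 alternatives each, 9 of which leave out 1 array. Gimap4 was called lower against naive cells in all of them. The count of members lower in acute Th2 cells was 1 throughout. The count higher in acute Th2 cells, 0 with all arrays, was 3 with array weights, 2 without naive 1 and chronic Th2 3 together, and 0 to 2 with 1 array left out (2 without naive replicate 1). In chronic against naive cells the count lower was 2 when centred on olfactory receptor genes and 1 to 2 with 1 array left out (2 without naive replicate 3). The count higher fell from 1 to 0 when centred on each array's median or on olfactory receptor genes, with trend and robust, with only 6 arrays, with the replicate block, or without naive 1 and chronic Th2 3 together, and was 0 to 1 with 1 array left out (1 without naive replicate 1). Between chronic and acute Th2 cells the count lower was 2 with array weights (Gimap4 and Gimap7) and 1 without naive 1 and chronic Th2 3 together, and 0 with any 1 array left out.

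Signs that turned belong to values that were not called, other than Gimap8. With quantile normalization, chronic minus naive was 0.048 for Gimap5 and 0.011 for Gimap7, and chronic minus acute was 0.024 for Gimap3 and 0.12 for Gimap9. With array weights, acute minus naive was 0.073 for Gimap1, chronic minus naive 0.11 for Gimap5 and 0.37 for Gimap7, and chronic minus acute 0.031 for Gimap9. Centred on olfactory receptor genes, Gimap8 was at -0.050 (chronic minus naive) and -0.26 (chronic minus acute) and Gimap6 at -0.17 (chronic minus acute). Without naive 1 and chronic Th2 3 together, chronic minus naive was 0.066 for Gimap5, 0.024 for Gimap6 and 0.46 for Gimap7, and chronic minus acute 0.041 for Gimap9. With 1 array left out, values ran from -0.15 to 0.091 for Gimap1 (acute minus naive), from -0.20 to 0.12 for Gimap5 and from -0.29 to 0.29 for Gimap7 (chronic minus naive), and from -0.24 to 0.041 for Gimap9 (chronic minus acute). The cause was not tested.

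The pairing of arrays by replicate number was partial: 6 of 9 same-numbered pairs had a correlation of deviations over 0.1, against 2 of 18 pairs of different numbers, the lowest same-numbered one was -0.085, and 6 of 9 arrays correlated best with their own number. Not every pair passed 0.1, so the fit without the block was kept. The replicate block took the Gimap8 call away (limma adjusted p = 0.0716) and changed no other call of a member. Counts over all genes moved more. In acute against naive cells, 439 were lower and 732 higher, with 193 to 1218 and 460 to 1206 when 1 array was left out. In chronic against naive cells, 837 were lower and 734 higher, with 312 to 2274 and 422 to 1200. Other settings gave 197 to 2071 and 446 to 1948, and 298 to 3285 and 314 to 2081. The 3 lower and 3 higher between chronic and acute cells became 2748 and 3973 with array weights. Centred on olfactory receptor genes, 91.3% of calls in chronic against naive cells were lower, against 53.3% in the values as deposited. Between chronic and acute cells the share lower was 50% as deposited, 20% after quantile normalization, 80% when centred on medians and 100% when centred on olfactory receptor genes, over 5 to 44 calls.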
